A study of Homo sapiens with 6 samples.

Results

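Tubulins are the building blocks of microtubules. An alpha- and a beta-tubulin pair into a dimer, dimers add end to end into a hollow polymer, and several genes encode each partner. The proteins of these genes, the isotypes, are close to identical over their folded core and differ mainly in the acidic tail that projects from the polymer, where motors and modifying enzymes act. Cells also hold tubulin mRNA levels in check: when free dimer is plentiful, the factor TTC5 binds the first residues of tubulin chains as they leave the ribosome and their mRNAs are degraded.

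The genes described here are 10 tubulin isotypes, 4 alpha (TUBA1A, TUBA1B, TUBA1C and TUBA4A) and 6 beta (TUBB, TUBB2A, TUBB2B, TUBB3, TUBB4B and TUBB6), taken by symbol from a table of 58735 genes. The family was picked because TUBB6 was higher in one of the lines. The difference of TUBB6 between the lines is therefore given as a description with no test, and the other 9 isotypes, chosen by name, are tested in a fit across all genes. RNA came from HEK293, a human embryonic kidney line, made to express tensin 2 (TNS2, a focal adhesion protein) stably, in 1 of the forms Y483E, where a tyrosine is changed to glutamate, and Y483F, where the same tyrosine is changed to phenylalanine. Glutamate is used to resemble a phosphorylated tyrosine, and phenylalanine cannot be phosphorylated. Each of the 2 groups had 3 libraries, which the submitters numbered 1, 4 and 5 (replicates 1, 2 and 3). Both groups carry a tensin 2 construct, no HEK293 control without one was analysed here, and the sources used here do not say how many clones each line stands for, so the mutation and a difference between lines cannot be told apart. The titles call the replicates biological without naming separate cultures, so the p-values speak of the spread among these libraries alone.

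Reads at genes summed to between 17204498 and 23284592 per library. The HEK293 label was checked on 7 genes this line is known to express: NEFL, INA, VIM, KRT8 and KRT18 had means above 1 FPKM (fragments per kilobase of gene, scaled to sequencing depth), while PAX2 and NEFM had means of 0.984 and 0.238. Summed FPKM of 10 neuronal genes, of interest because TUBB3 and TUBB2B are neuronal isotypes, was 73.1 to 88.4 in Y483E and 74.6 to 81.3 in Y483F. Nearly all of it came from NEFL, INA and SYP, and ELAVL4 was at 0 in every library. Blood, fibroblast and hepatocyte genes each summed to at most 1.37 FPKM in any library, with PTPRC, CD3E, HBB, COL1A2 and SERPINA1 at 0. The blood sum came mostly from HBA1 (mean 1.09 FPKM, above that of PAX2) and the fibroblast sum from COL1A1 (0.667). In bulk RNA, fewer cells of a kind and less RNA per cell cannot be told apart.

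The isotype messages are alike in sequence, which bears on how well their reads can be assigned. Coding sequences of GENCODE 29 transcripts shared 85.0 to 97.3% of aligned bases among the alpha isotypes and 81.7 to 98.1% among the beta isotypes, against 61.0 to 65.9% between alpha and beta. TUBB6 was the beta isotype farthest from TUBB, at 81.7%, and closest to TUBB3, at 88.3%. The first 30 coding bases are shown because their first 4 codons, in capitals, encode the residues that TTC5 reads on a nascent chain.
TUBB6: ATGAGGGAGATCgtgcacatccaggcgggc
TUBB: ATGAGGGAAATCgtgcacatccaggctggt
TUBB2B: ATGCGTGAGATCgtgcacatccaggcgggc
TUBA1A: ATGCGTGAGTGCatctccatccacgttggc
TUBA4A: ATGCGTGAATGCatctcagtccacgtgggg
TUBB6 shared these 12 bases with TUBB3, TUBB shared its own with TUBB4B, and TUBA1A, TUBA1B and TUBA1C had 1 sequence in common.

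The last 60 coding bases encode the tail by which isotypes are told apart as proteins, and are shown for the 5 beta isotypes with a mean of at least 1 FPKM, with the stop codon in capitals.
TUBB6: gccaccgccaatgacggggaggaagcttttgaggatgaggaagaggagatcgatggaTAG
TUBB: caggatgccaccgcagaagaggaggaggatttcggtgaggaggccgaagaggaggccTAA
TUBB4B: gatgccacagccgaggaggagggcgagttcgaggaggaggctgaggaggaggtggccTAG
TUBB2A: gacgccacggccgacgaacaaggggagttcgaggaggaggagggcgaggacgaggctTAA
TUBB2B: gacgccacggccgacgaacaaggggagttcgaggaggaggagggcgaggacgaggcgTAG
Over these 60 bases TUBB2A and TUBB2B differed only at their last codons. The TUBB6 end had no such partner among the beta isotypes shown.

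How far this likeness could mix reads was measured as the share of all stretches of a gene's annotated transcripts that also occur, on either strand, in transcripts of another gene. At 100 bases it was highest for TUBB2A (48.9%) and TUBB2B (46.0%), which share most with each other. Levels of TUBB2A and TUBB2B are therefore uncertain relative to each other. For TUBA1B the share was 28.3%, of which 26.2 percentage points were with the antisense gene AC011603.2 (mean 0.156 FPKM). For TUBA1C it was 23.4%, led by the antisense gene AC125611.3 (10.8 percentage points, listed at 0 FPKM), and for TUBA1A 17.7%, led by TUBA1C. TUBB4B shared 3.27% and TUBB 15.2%, the latter mainly with an antisense transcript. For TUBB6 the share was 13.2%, all of it with AFG3L2, a mitochondrial protease gene that overlaps the end of TUBB6 on the opposite strand. The exons of these neighbours have 837 bases in common, 20.3% of the exonic bases of TUBB6. The strandedness of the libraries is not given, so reads in such overlaps cannot be assigned by strand. The same holds for the 490 exonic bases that TUBA1A and TUBA1C share on opposite strands.

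**Figure D1:**
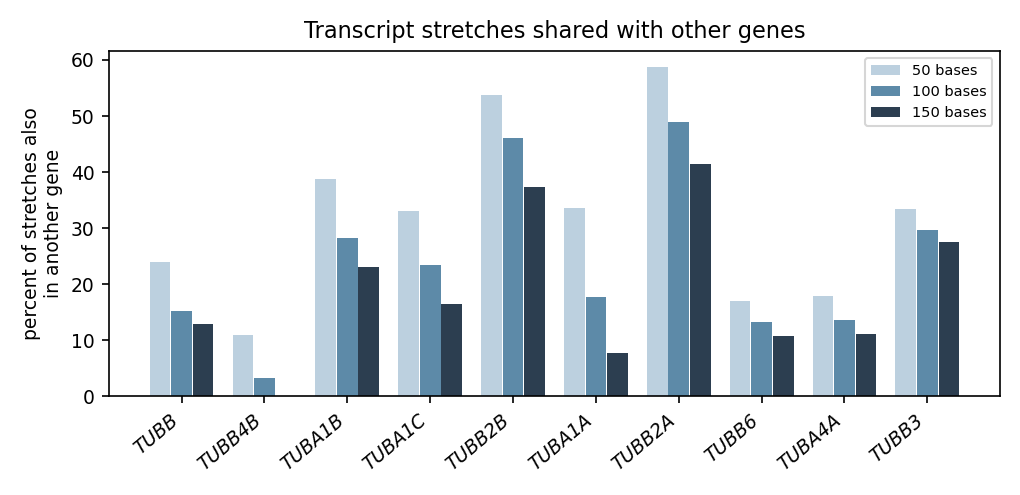
Percent of transcript stretches of 50, 100 or 150 bases that also occur in transcripts of another gene (vertical axis), for each isotype (horizontal axis, from the highest to the lowest mean FPKM). TUBB2A and TUBB2B stand highest and TUBB4B lowest, and every isotype falls as the stretch grows.

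Of the 10 isotypes, 8 had a mean of at least 1 FPKM and entered the test, and 2 (TUBA4A and TUBB3) did not. The most abundant was TUBB, the common beta isotype of dividing cells (chromosome 6, 30720201 to 30725426, GRCh38), whose mean was 505 ± 3.18 FPKM in Y483E and 491 ± 12.9 FPKM in Y483F (SD, n = 3 here and below). TUBB4B, a beta isotype of most tissues that is also used in cilia (chromosome 9, 137241213 to 137243707), followed at 365 ± 34.8 and 363 ± 20.7. TUBA1B, the main alpha isotype (chromosome 12, 49127782 to 49131397), was at 277 ± 9.45 and 254 ± 13.9. These 3 genes did not overlap in level with one another or with any other isotype in any library.

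A middle group lay about an order of magnitude lower. TUBA1C had 52.7 ± 3.20 FPKM in Y483E and 50.5 ± 3.63 in Y483F, TUBB2B 49.5 ± 4.65 and 41.0 ± 4.81, and TUBA1A 46.3 ± 5.87 and 39.9 ± 2.36. TUBB2A had 32.4 ± 2.44 and 31.1 ± 1.42, and TUBB6 had 30.2 ± 0.833 and 23.3 ± 1.13. Within this group TUBA1C, TUBB2B and TUBA1A overlapped one another in level, and in Y483E so did TUBB2A and TUBB6. In Y483F every TUBB6 value lay below every TUBB2A value. TUBA1A and TUBB2B are best known from developing brain, and TUBB6 from muscle and other mesenchymal tissue.

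TUBA4A, an alpha isotype of muscle, heart and platelets, was at 0.407 ± 0.0436 and 0.480 ± 0.0442 FPKM on 31 to 37 reads a library. Its Y483E values were 0.425, 0.357 and 0.439 and its Y483F values 0.530, 0.463 and 0.446, so the groups did not overlap, with 0.439 next to 0.446. TUBB3, the neuronal beta isotype, was at 0.194 ± 0.0744 and 0.244 ± 0.0197 FPKM on 10 to 28 reads, with overlapping groups. These read counts set the precision of both genes. On reads, edgeR gave -0.25 ± 0.22 (log2, SE, adjusted p = 0.683) for TUBA4A and -0.31 ± 0.34 (adjusted p = 0.749) for TUBB3. TUBB3 overlaps AC092143.1, a protein-coding model at 0 FPKM in these libraries, over 14701 bases of the same strand. The exons of the pair share 1584 bases, 35.8% of the exonic bases of TUBB3. How reads in these shared bases were counted is not given, so the TUBB3 level is uncertain as well.

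**Figure D2:**
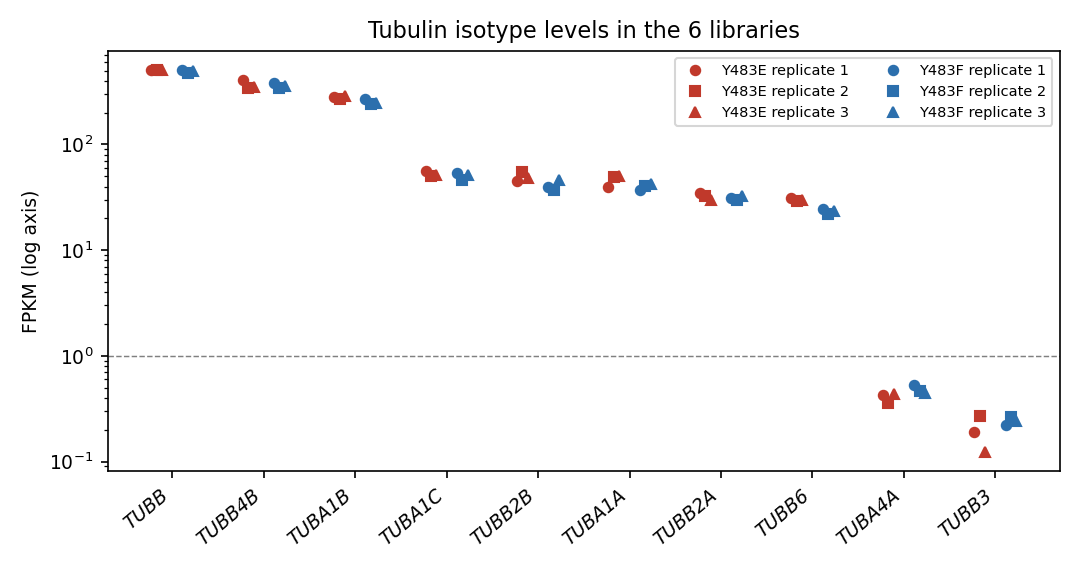
FPKM on a log axis for each isotype in each of the 6 libraries (Y483E red, Y483F blue, one symbol per replicate), with a dashed line at 1 FPKM, the minimum mean for testing. TUBB, TUBB4B and TUBA1B lie above 200 FPKM, 5 isotypes between 22.2 and 56.3, and TUBA4A and TUBB3 below 1.

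TUBB6 (ENSG00000176014, chromosome 18, 12307669 to 12344320, plus strand) encodes the class V beta isotype. Its values were 31.1, 29.5 and 30.03 FPKM in Y483E replicates 1, 2 and 3 and 24.4, 22.2 and 23.2 in Y483F, from 2291, 2830, 2278, 1722, 1641 and 1946 reads. Every Y483E library lay above every Y483F library. Over all 12833 tested genes 17.1% had groups that do not overlap, 9.72% with Y483E higher and 7.37% with Y483E lower, and since TUBB6 was chosen on this contrast nothing is read from its place among them. The mean of Y483E was 29.8% above that of Y483F, a log2 difference of 0.36 ± 0.049 (SE) on log2(FPKM + 1). TUBB6 ranked 129 of 12833 by this difference. In the pairs of equally numbered libraries the differences were 0.34, 0.40 and 0.36 for numbers 1, 4 and 5, values of the contrast that chose the gene.

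**Figure D3:**
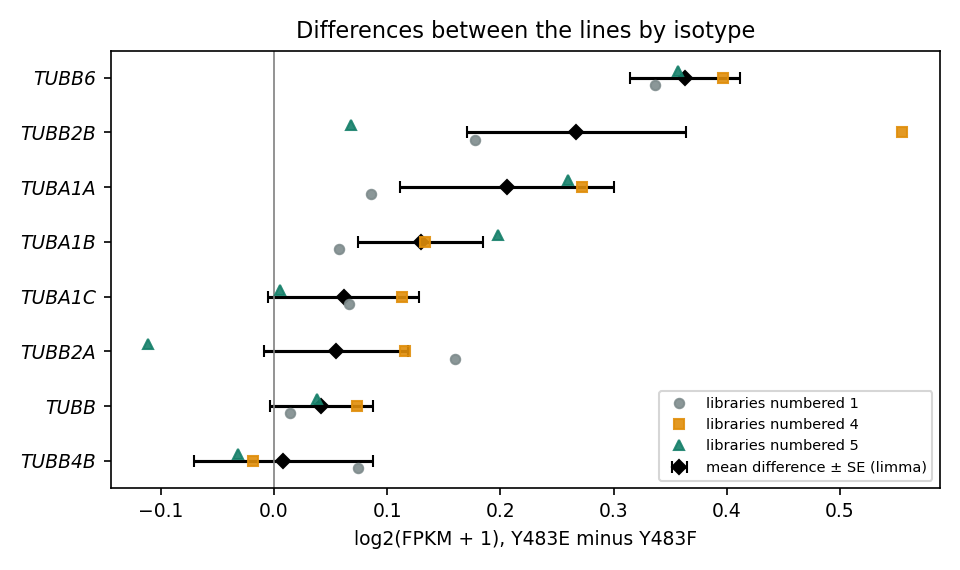
Difference between the lines in log2(FPKM + 1), Y483E minus Y483F, for the 8 tested isotypes. Black diamonds with bars are the limma estimate and its SE over all 6 libraries, and coloured symbols are the differences between libraries of equal number. The 3 symbols of TUBB6 lie between 0.34 and 0.40, while those of TUBB2B spread from 0.068 to 0.56.

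Among the other 9 isotypes, limma called 0 of the 7 that were tested, with 1 at an unadjusted p under 0.05. The background was the same, 0.0% of 12833 genes called and 12.2% at an unadjusted p under 0.05. On reads edgeR called 0 of 9. DESeq2 gave TUBA4A and TUBB3 no adjusted p and called 0 of the other 7. The share of genes called was 0.0438% by edgeR and 1.27% of the 11241 genes with an adjusted p in DESeq2. All 7 had a log2 difference above 0 in limma, with a median of 0.061, against a median of 0.007 and 52.8% above 0 over all tested genes. None of the 7 had groups that do not overlap.

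TUBB2B came next to TUBB6 in size. Its values were 45.4, 54.5 and 48.5 FPKM in Y483E and 39.97, 36.8 and 46.2 in Y483F, so that 1 Y483F library lay above 1 Y483E library. The log2 difference was 0.27 ± 0.097 (adjusted p = 0.358 in limma, 95% interval 0.039 to 0.49). Its nearly identical neighbour TUBB2A, with 34.9, 32.3 and 30.1 in Y483E and 31.2, 29.7 and 32.6 in Y483F, gave 0.055 ± 0.063 (adjusted p = 0.759). The TUBB2A groups overlapped, and its estimate lay between 0.00156 (without Y483E replicate 1) and 0.107 (without Y483E replicate 3) when 1 library was left out. It turned to -0.0114 with array weights and to -0.00114 by edgeR without the libraries numbered 1.

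The alpha isotypes TUBA1A, TUBA1B and TUBA1C were higher in Y483E in each pair of equally numbered libraries without passing the threshold. So were TUBB and TUBB2B, while TUBB2A and TUBB4B were not. TUBA1A had 39.6, 49.2 and 50.3 FPKM in Y483E and 37.3, 40.5 and 41.8 in Y483F, a log2 difference of 0.21 ± 0.095 (adjusted p = 0.434 in limma). Only Y483E replicate 1 lay among the Y483F values. TUBA1B had 280, 267 and 285 in Y483E and 269, 243 and 248 in Y483F, a difference of 0.13 ± 0.055 (adjusted p = 0.409). Here Y483F replicate 1 lay above the lowest Y483E library. TUBA1C, at 56.3, 50.5 and 51.2 against 53.8, 46.6 and 51.0, gave 0.061 ± 0.067 (adjusted p = 0.743). That estimate was 0.00616 without Y483F replicate 2, 0.0128 without Y483E replicate 1 and 0.108 without Y483F replicate 1.

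The most abundant beta isotypes had the smallest differences of the 8 tested. TUBB had 507, 502 and 508 FPKM in Y483E and 502, 477 and 494 in Y483F, a log2 difference of 0.042 ± 0.046 (adjusted p = 0.743 in limma) with a 95% interval of -0.065 to 0.15. TUBB4B had 405, 339 and 353 in Y483E and 384, 343 and 360 in Y483F, a difference of 0.0083 ± 0.079 (adjusted p = 0.977) with an interval of -0.18 to 0.19. The direction of TUBB4B turned under median-of-ratios scaling and quantile normalization. In both lines the library numbered 1 was the highest of its group in TUBB4B and TUBA1C and the lowest in TUBA1A.

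When the libraries numbered 1 were left out, a comparison chosen with earlier results known, edgeR called 3 of the other 9 isotypes, all higher in Y483E, where 15.0% of 16308 genes were called with 7.07% called higher and 7.98% lower. TUBA1A was higher by 0.27 ± 0.038 (edgeR adjusted p = 0.000344), TUBA1B by 0.16 ± 0.042 (0.0181) and TUBB2B by 0.31 ± 0.079 (0.0171). Limma on these libraries called TUBA1A alone (adjusted p = 0.0326, against 0.0805 for TUBA1B and 0.161 for TUBB2B), where 5.71% of genes were called. Between the libraries numbered 1 the differences were 0.086, 0.057 and 0.18. Over all 6 libraries, limma with array weights called TUBA1B (14.7% of all genes called), and edgeR with no filter on low reads called TUBA1A and TUBB2B (2.15% called). The TUBB2B estimate without the libraries numbered 1 joined a difference of 0.56 for number 4 with 0.068 for number 5.

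The authors' deposited table lists the 1652 genes with an unadjusted p under 0.05. How many genes the authors tested is not given there, so no share can be set beside the isotypes it holds. These are TUBB6, for which the family was picked, and TUBB2B, TUBA1A and TUBA1B. Its log2 fold changes of Y483E over Y483F are 0.38 for TUBB6, 0.27 for TUBB2B, 0.22 for TUBA1A and 0.13 for TUBA1B. Its adjusted p-values for the last 3 are 0.125, 0.246 and 0.317. The table rests on the same libraries and is not separate evidence.

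Summed over isotypes, tubulin FPKM lay between 1239 and 1399 in the 6 libraries. The alpha sum was 377, 367 and 387 in Y483E and 361, 331 and 341 in Y483F, with every Y483E library above every Y483F library (exact permutation p = 0.1, two-sided, the smallest that 3 against 3 can give). Beta without TUBB6 summed to 992, 927 and 939 against 957, 886 and 934, and its groups overlapped (exact permutation p = 0.5). This beta difference, 26.8 FPKM, came to 7.28 when Y483E replicate 1 was left out and to 7.08 when Y483F replicate 2 was. The ratio of these sums was 0.396 ± 0.0162 in Y483E and 0.372 ± 0.00576 in Y483F (exact permutation p = 0.1), and its difference of 0.0238 was 0.0157 without Y483E replicate 3. Adjusted over the 3 sums and ratios compared, the p-values were 0.15, 0.5 and 0.15, and with 3 libraries a group no threshold of 0.05 can be reached.

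TUBB6 took 3.04, 3.08 and 3.10% of summed beta FPKM in Y483E and 2.49, 2.44 and 2.43% in Y483F. TUBB took 51.4 ± 1.66% and 51.7 ± 0.684%, and TUBB4B 37.1 ± 2.18% and 38.2 ± 0.830%. TUBB2B took 5.05 ± 0.632% and 4.32 ± 0.445%, and TUBB2A 3.298 ± 0.170% and 3.28 ± 0.113%. The TUBB6 share was 0.62 percentage points higher in Y483E, and TUBB and TUBB4B made up most of the beta pool in every library. Among alpha isotypes TUBA1B took 73.6% in both lines, TUBA1C 14.0 ± 0.886% and 14.6 ± 0.481%, and TUBA1A 12.3 ± 1.56% and 11.6 ± 1.11%.

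**Figure D4:**
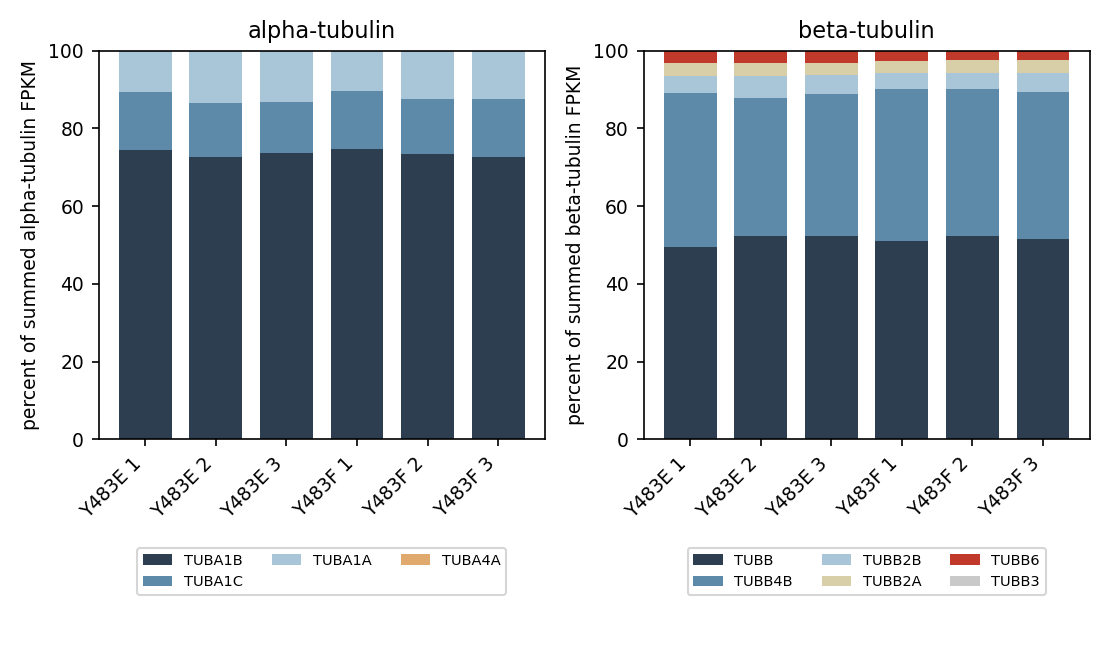
Percent of summed alpha-tubulin FPKM (left) and beta-tubulin FPKM (right) taken by each isotype in each of the 6 libraries. TUBB6, in red at the top of the beta bars, takes 3.04 to 3.10% in the Y483E libraries and 2.43 to 2.49% in the Y483F libraries, and TUBB with TUBB4B fill most of each bar.

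TUBB6 is the single isotype of the 10 on chromosome 18, whose genes were higher in Y483E as a group. Chromosome 18 was examined with that already known from earlier results of these data, so its counts are a description. Of the 181 other tested genes there, 162 were higher and 19 lower in Y483E, 89.5% against 52.3% of the 12651 tested genes of other chromosomes. Their median log2 difference was 0.12, against 0.0058 for the rest, and limma called 0 of them. With no filter on low FPKM the chromosome's median in limma was 0.0316. Of these genes 39.8% had every Y483E library above every Y483F library, against 9.72% of all tested genes. By library, their median deviation from the mean of the 6 libraries, less that of the other genes, was 0.051, 0.057 and 0.067 in Y483E and -0.017, -0.066 and -0.071 in Y483F. These medians separated the lines, as TUBB6 did. How much of the TUBB6 difference goes with the shift of the chromosome was not tested. The chromosomes of the other isotypes had medians of 0.0012 (chromosome 12), 0.013 (chromosome 6), 0.018 (chromosome 9), 0.022 (chromosome 2) and -0.023 (chromosome 16). Chromosome 18 was not alone in its shift. Chromosomes 21, 20 and 13, which hold none of the 10 isotypes, had medians of -0.143, -0.0946 and -0.0486. On these, 12.2%, 20.3% and 30% of tested genes were higher in Y483E.

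Within 5 Mb of TUBB6, 24 of 29 tested genes were higher in Y483E, with a median of 0.10. The nearest tested gene was the overlapping AFG3L2, with 16.6, 16.5 and 16.7 FPKM in Y483E and 15.7, 14.4 and 15.1 in Y483F, a log2 difference of 0.13 ± 0.045 (adjusted p = 0.338 in limma). Its groups did not overlap either, and its reads in the bases shared with TUBB6 cannot be separated from those of TUBB6. Further downstream, SPIRE1, an actin nucleator, had 8.36 ± 0.279 and 7.12 ± 0.0517 FPKM, a difference of 0.20 ± 0.046 (adjusted p = 0.257), and PRELID3A, a lipid transfer protein of mitochondria, gave 0.13 ± 0.085. Upstream, CCDC58P3, a pseudogene, was lower in Y483E, at 1.07 ± 0.364 and 2.44 ± 0.661 FPKM (-0.73 ± 0.18, adjusted p = 0.265). CHMP1B, of the ESCRT-III machinery, and IMPA2, an inositol phosphatase, gave 0.17 ± 0.076 and 0.16 ± 0.078. The phosphodiesterase MPPE1 gave -0.041 ± 0.086 and the noncoding gene AP001029.1 -0.44 ± 0.35. Of these 8 neighbours 5 were higher in Y483E.

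**Figure D5:**
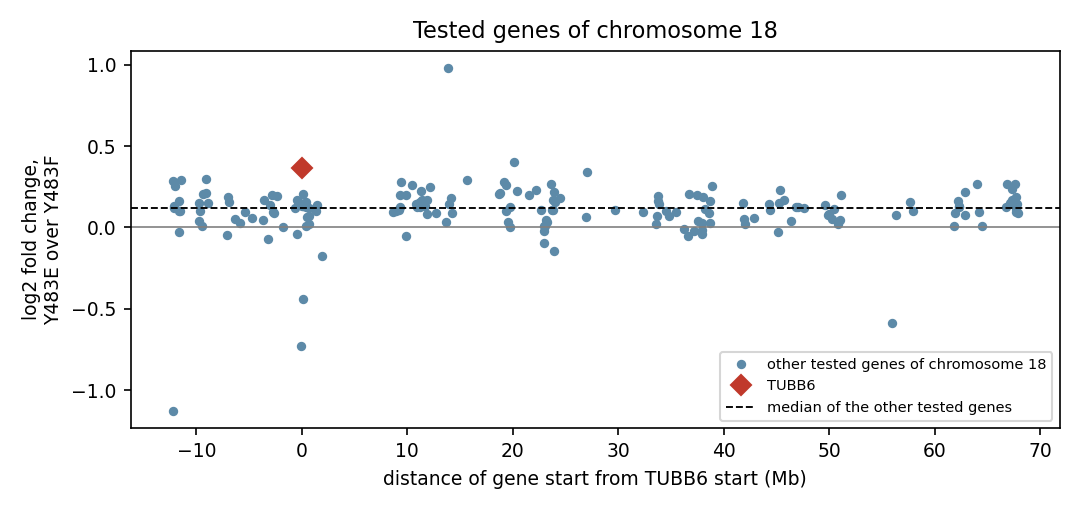
Log2 fold change of Y483E over Y483F (vertical axis) for the 182 tested genes of chromosome 18, by the distance of each gene's start from that of TUBB6 in Mb (horizontal axis). The dashed line is the median of the 181 other genes, 0.12, 162 of these lie above 0, and TUBB6 (red) was chosen for its value on this axis.

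RefSeq (GRCh38.p14) gives TUBB6 a pair of start sites, and all 10 isotypes matched its promoter table, with 15 start sites. The window of the downstream TUBB6 start, chr18:12307991-12308290 on the plus strand, is shown as the sequence context of the gene that differs most, with GC boxes and the CCAAT box in capitals.
TUBB6 promoter: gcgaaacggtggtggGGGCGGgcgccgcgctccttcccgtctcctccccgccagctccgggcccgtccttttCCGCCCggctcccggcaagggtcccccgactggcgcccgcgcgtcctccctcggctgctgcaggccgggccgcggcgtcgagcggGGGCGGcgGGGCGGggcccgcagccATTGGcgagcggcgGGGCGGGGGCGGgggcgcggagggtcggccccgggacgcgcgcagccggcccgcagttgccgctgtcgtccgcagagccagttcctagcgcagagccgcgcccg
This window held 6 GC boxes (GGGCGG on either strand) and 1 CCAAT box (CCAAT on either strand), and the window of the upstream start held neither. The GC box was present in 15786 of all 35116 promoter windows and in 9 of the 15 isotype windows, and the CCAAT box in 34.6% of all windows and in 9 of 15. TATAAA was found in 11.5% of all windows and in that of TUBB2A. These are matches of letters, not measured binding.

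The tested genes whose pattern over the 6 libraries was closest to that of TUBB6, by the root mean square difference of centred log2(FPKM + 1), were AC080112.1 (0.028), LINC01547 (0.028), RPRML (0.039), NUDT18 (0.040) and ENDOG (0.040). Centring over all 6 libraries keeps the contrast that chose TUBB6. The ranking therefore favours genes with a like difference between the lines, 0.35 to 0.38 for these 5, and is a description. None of these 5 lies on chromosome 18. AC080112.1 averaged 3.51 ± 0.137 FPKM in Y483E and 2.52 ± 0.113 FPKM in Y483F, and ENDOG 17.8 ± 1.05 and 13.7 ± 1.18. The isotype nearest to TUBB6 was TUBA1B (0.12, rank 503 of 12832), followed by TUBB2B (0.14, rank 1246), and the farthest was TUBB4B (0.19, rank 5242).

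Other tubulin genes were low except for gamma-tubulin, which nucleates microtubules at the centrosome. Of 12 such genes 5 were tested, 2 higher and 3 lower in Y483E, with 0 called and a median of -0.028. TUBG1 averaged 57.5 ± 3.02 FPKM in Y483E and 59.7 ± 5.33 FPKM in Y483F. TUBG2 had 6.68, 6.64 and 5.91 in Y483E and 6.17, 9.85 and 8.71 in Y483F (-0.30 ± 0.14, limma adjusted p = 0.455). Only Y483F replicates 2 and 3 were high in TUBG2, and without the libraries numbered 1 edgeR called it lower in Y483E (-0.56 ± 0.097, adjusted p = 0.0014). The centriolar tubulins TUBD1 and TUBE1 were at 4.54 ± 0.433 and 4.22 ± 0.230 in Y483E and 4.19 ± 0.409 and 4.32 ± 0.0597 in Y483F. The brain isotype TUBB4A was at 3.58 ± 0.480 and 3.296 ± 0.460. Of 40 genes with symbols of tubulin pseudogenes, 22 had 0 reads in every library, and the highest, TUBBP1, was at 7.64 ± 1.16 and 7.51 ± 0.370. The deposited annotation types TUBB8P12 among them as protein-coding and TUBA3FP as a processed transcript.

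Genes that act on tubulin, with the other tubulin genes and the actin cytoskeleton, made up 8 lists with 128 genes, of which 102 were tested. Limma called 0 of the 102, where 0.0% of all genes were called, and 16 had an unadjusted p under 0.05. In Y483E 66 were higher, with a median of 0.037 against 0.007 over all genes.

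Folding of tubulin needs prefoldin, the chaperonin CCT and the cofactors TBCA to TBCE. Y483E had the higher mean for 12 of the 20 tested and the lower for 8 (median 0.020). CCT8 and CCT3, the most abundant, were at 237 ± 12.4 and 238 ± 9.16 FPKM in Y483E and 267 ± 19.6 and 236 ± 12.3 in Y483F. The 10 genes of tubulin mRNA autoregulation, TTC5, SCAPER and subunits of the CCR4-NOT deadenylase, split into 6 higher and 4 lower with a median of 0.0092. CNOT1, the scaffold of that complex, was at 37.4 ± 1.78 and 32.2 ± 1.97 (0.21 ± 0.058, limma adjusted p = 0.298), CNOT11, the subunit SCAPER contacts, at 24.0 ± 0.541 and 24.3 ± 0.877, and TTC5, named outside the rule, at 4.17 ± 0.248 and 4.11 ± 0.157.

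The gamma-tubulin ring complex had 4 of 11 genes higher and 7 lower (median -0.026), with TUBG1 as above and MZT1 at 44.3 ± 1.35 and 46.9 ± 3.16 FPKM in Y483E and Y483F. Enzymes that add or remove tail residues and acetyl groups had 11 higher and 5 lower (median 0.048). The tyrosine ligase-like TTLL12 was at 60.1 ± 5.09 and 62.6 ± 2.48, and the deacetylase SIRT2 at 16.6 ± 0.537 and 16.1 ± 0.460. Microtubule-associated and plus-end proteins had 12 higher and 4 lower (median 0.075). The plus-end protein MAPRE1 was at 96.2 ± 3.20 and 104 ± 8.69, and the spindle factor TPX2 at 78.5 ± 2.01 and 83.7 ± 3.802. Destabilising and severing proteins had 6 higher and 4 lower (median 0.012), with STMN1, which sequesters dimers, at 71.3 ± 3.804 and 68.2 ± 0.476, and STMN3 at 31.1 ± 0.947 and 31.3 ± 0.943.

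Actin cytoskeleton genes, a comparison outside microtubules, split 13 to 3 in favour of Y483E among 16 tested (median 0.067), and limma called 0. ACTG1 averaged 952 ± 51.2 and 969 ± 46.9 FPKM in Y483E and Y483F, and ACTB 534 ± 32.3 and 520 ± 22.0. Without the libraries numbered 1, where edgeR called 7.07% of all genes higher and 7.98% lower, it called 6 of 17 actin list genes higher and 1 lower. It called 5 of 19 microtubule-associated and plus-end genes higher and 0 lower, and 3 of 18 modification genes higher and 1 lower. Of 11 gamma-tubulin ring genes it called 3 higher and 2 lower, and of 8 other tubulin genes 0 higher and 2 lower. It called 1 of 20 folding genes and 1 of 12 destabilising and severing genes in each direction, and of 10 autoregulation genes 1 higher and 0 lower.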

How the data were processed

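Per the submitters' processing notes, DESeq, DESeq2, HISAT2 2.0.5, featureCounts 1.5.0-p3 and StringTie 1.3.3b were used, with no roles named and no genome build given in the sources used here. All 10 isotypes had the GRCh38 positions of GENCODE 29. The authors deposited FPKM for all genes and, for 1652 genes, counts, a size-factor scaled signal, log2 fold changes and p-values (largest unadjusted 0.04999).

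The test was limma 3.58.1 (eBayes with trend, two-sided) on log2(FPKM + 1), where the mean reached 1 FPKM, with a threshold of 0.05 on the p adjusted by Benjamini-Hochberg across all tested genes. FPKM times gene length and library total gave whole reads (within 0.01) for 100% of values above 0. The library totals were worked out from the listed counts, so agreement with those is largely built in. These reads were tested with edgeR 4.0.16 (quasi-likelihood), which called 7 of 15992 genes, and DESeq2 1.42.0. A read count of 0 allows up to 3 reads, counting error only. Single values were compared by exact permutation. The limma and edgeR scripts were tested on simulated data.

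Members, lists, chromosome 18 and alternatives were chosen with earlier results of these data known. Named genes are the isotypes, other tubulin genes of at least 1 FPKM, the 2 most abundant members of each list (none having passed), 4 tested neighbours on each side of TUBB6 and the 5 closest patterns. TBCE was left out of its list because its symbol was not unique. The coding ends of the alpha isotypes are not reported here.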

Additional observations from a re-analysis of the deposited data

How the results depend on the processing

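The TUBB6 difference kept its direction and moved by less than the spread within groups under all 23 alternatives, from 0.33 without Y483F replicate 2 to 0.40 without Y483F replicate 1, which for a gene chosen on this contrast supports nothing. Its share of beta-tubulin moved from a difference of 0.62 to 0.657 percentage points in the libraries numbered 4 and 5. Genes past the threshold numbered 0 in limma, but 1888 (14.7% of those tested) with array weights and 733 (5.71%) in the libraries numbered 4 and 5. They numbered 7 in edgeR (0.0438%) and 7 in edgeR with DESeq2 size factors. They numbered 671 (2.15%) in edgeR with no filter and 2454 (15.0%) in edgeR on numbers 4 and 5. In DESeq2 they numbered 143 (1.27% of genes with an adjusted p). Of the other 9 isotypes 1 was called with array weights (TUBA1B), 1 by limma on numbers 4 and 5, 2 by edgeR with no filter (TUBA1A and TUBB2B) and 3 by edgeR on numbers 4 and 5. These 4 fits called 19, 9, 10 and 27 members of the microtubule and actin lists, and DESeq2 called 2. The numbers of members tested differ between fits and are not all given here. These counts are therefore not read against the shares of all genes. The cause of these changes was not tested. The TUBB4B estimate turned to -0.00218 with median-of-ratios scaling, -0.0257 with quantile normalization, -0.0261 with array weights, and -0.0249 (limma) and -0.0295 (edgeR) in numbers 4 and 5, and ranged from -0.0674 to 0.0606 when 1 library was left out. TUBB2A turned to -0.0114 with array weights and -0.00114 by edgeR on numbers 4 and 5. Leaving out 1 library moved TUBB2A between 0.00156 and 0.107, TUBA1C between 0.00616 and 0.108, TUBB from 0.042 to 0.0207 (without Y483F replicate 2) and TUBA1A from 0.21 to 0.313 (without Y483E replicate 1). The chromosome 18 median was 0.0316 by limma with no filter and 0.141 by edgeR with no filter. It was 0.142 with the filter at 5 FPKM, 0.162 by edgeR on numbers 4 and 5, and 0.105 to 0.145 when 1 library was left out. The summed beta difference without TUBB6 was 26.8 FPKM, and 7.28 without Y483E replicate 1 and 7.08 without Y483F replicate 2. Over the tested genes, deviations from the group means correlated at 0.056, 0.14 and -0.095 for equal numbers 1, 4 and 5. For unequal numbers they correlated at -0.26 to 0.21, so pairing by number was not settled. The replicate block lowered the limma SE of TUBA1A from 0.095 to 0.050, of TUBA1C from 0.067 to 0.038 and of TUBB4B from 0.079 to 0.044. That of TUBB2B went from 0.097 to 0.0995, and that of TUBB2A stayed at 0.063. With the replicate block limma called 0 genes and edgeR 6, and none of the other 9 isotypes.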

Other observations

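Sorted by chromosome, the tested microtubule and actin list genes showed the following, a grouping made after their values were seen. The 2 on chromosome 18, MAPRE2 and TPGS2, were higher in Y483E in every library than in any Y483F library. MAPRE2, a plus-end protein, was at 14.3 ± 0.0563 and 13.2 ± 0.734 FPKM, and TPGS2, a subunit of a tubulin polyglutamylase, at 8.66 ± 0.0552 and 7.54 ± 0.464. The 4 on chromosome 20 (MAPRE1, PFDN4, STMN3 and TPX2) all had estimates below 0, with a median of -0.092, and PFDN4 and TPX2 had groups that do not overlap. The 1 on chromosome 21, CCT8, was lower by -0.17 ± 0.067, also with groups that do not overlap. Of all tested genes, 20.3% on chromosome 20 and 12.2% on chromosome 21 were higher in Y483E. Among the 95 list genes on other chromosomes 64 had estimates above 0 and 31 below (median 0.038), and 12 had every Y483E library above every Y483F library while 0 showed the reverse. The share of all tested genes with groups that do not overlap was 9.72% for Y483E higher and 7.37% for Y483E lower. These shares include chromosomes 18, 20 and 21, and those of the other chromosomes alone are not given. Nothing is therefore read from the 12 and 0. None of the list genes was called by limma over all 6 libraries, with 16 at an unadjusted p under 0.05.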
